A study of Mus musculus with 6 samples.

Results

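The transcripts of 10 cytokine genes were compared between control and Dhps knockout macrophages: Tnf and Tnfsf9 of the TNF family, Il6 and Lif of the IL-6 family, Il10, and the chains of the IL-12 family Il12a, Il12b, Il23a, Il27 and Ebi3. The genes were chosen by symbol, and all 10 were among the 10551 genes of the deposited count table. The cells were bone marrow-derived macrophages, which are grown in culture from marrow progenitors, of strain C57BL/6J. Of 6 libraries, 3 carried the genotype label control and 3 the label macrophage-specific knockout, written Dhps_delta_Myel. Dhps encodes deoxyhypusine synthase, the enzyme that puts the precursor of hypusine onto translation factor eIF5A. By its title the series asks about the part of this enzyme in a pro-inflammatory macrophage state. The sources used here give no stimulus, growth factor, Cre driver, sex or age, and do not say whether replicate libraries stem from different mice. All p-values below therefore measure the spread between these libraries only, which may be technical.

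TNF is made as a membrane protein, is cut from the cell surface, and acts through its receptors on NF-kB and cell death pathways. IL-6 and LIF signal through receptor complexes that share gp130, and IL-10 restrains the output of activated macrophages through STAT3. The IL-12 family consists of pairs of chains: the IL-12B chain pairs with IL-12A to form IL-12 and with IL-23A to form IL-23, and EBI3 pairs with the IL-27 chain to form IL-27. Activated macrophages and dendritic cells are main sources of these cytokines.

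RefSeq upstream sequences (GRCm38.p6, the assembly of mm10) were matched for 6 of the 10 genes: Tnf, Il6, Il12a, Il12b, Ebi3 and Lif. The 250 bases before the start are printed for 4 genes that carry the account below. Tnf was the most abundant cytokine transcript, and Il6 and Il12b varied together between libraries. Lif was higher in every knockout library than in every control library. That difference did not pass over all genes (edgeR quasi-likelihood test, adjusted p = 0.495), and 11.2% of all genes had groups that did not overlap, in either direction. Capitals mark matches on either strand to the NF-kB consensus, AP-1 (TGANTCA), the C/EBP core (TTGNNCAA), the CRE half-site (TGACGT) or the TATA box (TATAAA).
Tnf (chr17:35202008-35202257, minus strand): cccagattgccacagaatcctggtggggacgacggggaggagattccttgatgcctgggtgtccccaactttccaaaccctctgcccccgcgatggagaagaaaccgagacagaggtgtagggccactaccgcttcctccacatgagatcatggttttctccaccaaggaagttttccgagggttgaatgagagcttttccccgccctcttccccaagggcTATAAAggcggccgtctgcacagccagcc
Il6 (chr5:30012864-30013113, plus strand): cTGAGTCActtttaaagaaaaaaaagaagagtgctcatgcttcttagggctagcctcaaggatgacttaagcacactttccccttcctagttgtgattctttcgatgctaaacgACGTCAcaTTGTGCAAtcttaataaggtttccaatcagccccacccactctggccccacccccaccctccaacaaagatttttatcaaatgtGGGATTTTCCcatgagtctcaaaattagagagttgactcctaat
Il12b (chr11:44399813-44400062, plus strand): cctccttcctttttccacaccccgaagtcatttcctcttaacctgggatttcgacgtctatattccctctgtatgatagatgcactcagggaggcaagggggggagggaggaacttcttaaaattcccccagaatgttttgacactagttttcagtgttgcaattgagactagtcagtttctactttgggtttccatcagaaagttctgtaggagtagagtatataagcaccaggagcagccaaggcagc
Lif (chr11:4257318-4257567, plus strand): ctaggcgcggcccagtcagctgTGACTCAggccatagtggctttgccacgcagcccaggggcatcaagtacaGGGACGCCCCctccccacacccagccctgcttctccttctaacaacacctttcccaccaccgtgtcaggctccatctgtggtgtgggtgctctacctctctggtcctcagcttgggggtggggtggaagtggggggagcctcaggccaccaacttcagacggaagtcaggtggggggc

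The Il6 window held an AP-1 match, a CRE half-site, a C/EBP core and an NF-kB match, none of which overlapped. The NF-kB match GGGATTTTCC lay from base -44 to -35 relative to the RefSeq start, which is base 30013114, while the deposited gene model begins at base 30013161. In the Lif window an NF-kB match lay from base -178 to -169 and an AP-1 match from base -228 to -222. Tnf held a TATA box from base -29 to -24, and Ebi3, whose window is not printed, an NF-kB match from base -44 to -35. The letters searched did not occur in the windows of Il12b or of either Il12a start. Of 32851 RefSeq windows of this length, 7.25% held the NF-kB consensus, 6.75% AP-1, 5.65% the C/EBP core, 6.47% the CRE half-site and 12.4% the TATA box. Of the 10331 such windows of genes in the count table, the shares were 9.07%, 4.49%, 4.64%, 10.3% and 6.12% in the same order. A match describes the letters and does not show binding.

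The libraries held between 11648710 and 16224818 counts, and the 10 cytokine genes together took from 0.353% to 0.496% of them in the controls and from 0.366% to 0.432% in the knockouts. The macrophage markers Adgre1, Cd68, Csf1r, Fcgr1, Mertk, Itgam and C1qa were all measured, with summed levels of 5038 to 5403 normalized CPM (counts per 1000000 counts of a library, after scaling of library sizes) in the controls and 4544 to 5286 in the knockouts. Dhps itself lay at 24.1, 20.9 and 23.4 CPM in the controls and at 13.2, 13.6 and 18.3 CPM in the knockouts. The difference in Dhps did not pass the threshold (log2 fold change -0.59, SE 0.14, adjusted p = 0.214), and every library labelled knockout held counts of it. Of the exon bases of Dhps 127 also lie in exons of Wdr83, on the other strand, and reads there could stem from either gene.

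None of the 10 cytokine genes passed the threshold for a rise or fall in the knockout libraries, which does not show that they were unchanged. Tnf, Il12b, Il6 and Il27 were abundant in both groups, and the other genes lay far below them. In edgeR's quasi-likelihood test, adjusted over all genes, 0 of the 10 passed at an adjusted p under 0.05, where 11 of 10551 genes (0.104%) passed. DESeq2 called 0 of the 10 as well, against 0.209% of all genes. At an unadjusted p under 0.05, 2 of the 10 differed, Il27 and Lif, against 6.48% of all genes. That count was 4 without control library 1, where Tnf and Il23a joined, and 3 without control library 3, where Il12a joined. The share of all genes at this p is given for the full set of libraries only, so these 2 counts have none beside them. At an adjusted p under 0.05, 19 genes of the table passed without control library 1 and 7 without control library 3. With all libraries, Il27 and Lif also had groups that did not overlap, as did 11.2% of all genes. The median log2 fold change of the 10 was -0.02, with 3 above 0 and 7 below. Over all genes it was -0.0044, with 5143 above 0 and 5408 below. For 8 of the 10 the 95% interval of the fold change lay within 1.5-fold either way, and for Lif and Il23a it reached beyond. These intervals rest on edgeR's estimate of spread, which borrows from other genes, and not on the spread of each gene alone. Il6 and Il12b had large SDs within groups for their level (0.43 and 0.33 on the log2 scale). For such genes the interval can be too narrow, so the count of 8 does not show equal levels. In bulk libraries fewer cells of a type and less RNA per cell cannot be told apart.

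**Figure D1:**
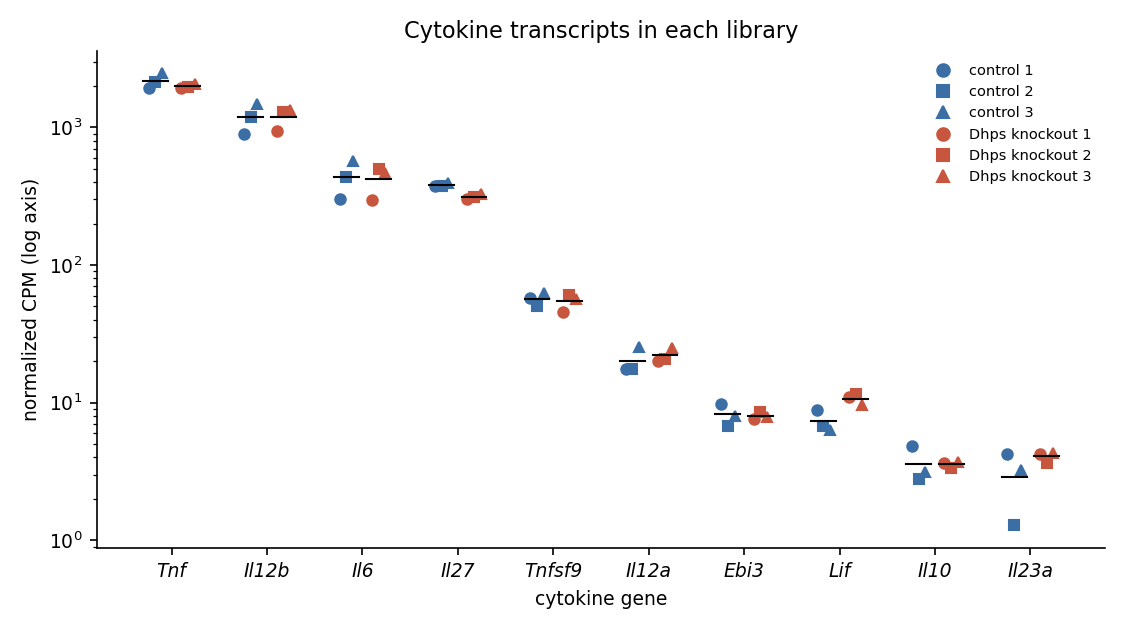
Normalized CPM (log axis) of the 10 cytokine genes, with a point for each library and a black line at each group mean. Tnf lies between 1937 and 2468 CPM and Il23a and Il10 under 5 CPM in both groups, and the groups separate only for Il27 and Lif.

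Tnf lay at 1937, 2122 and 2468 CPM in the controls and at 1947, 1970.2 and 2059 CPM in the knockouts. The knockout values fell inside the range of the control values, and the group means were 2176 ± 269.6 and 1992 ± 58.8 CPM (SD, n = 3 each). The log2 fold change was -0.13 (SE 0.096, adjusted p = 0.899), and the fold had a 95% interval of 0.796 to 1.05. Tnf, on chromosome 17 from base 35199367 to 35202007 of mm10 on the minus strand with 4 exons, was the 39th gene of the table by counts per base in the controls and the 42nd in the knockouts. Its family member Tnfsf9, the ligand of the costimulatory receptor 4-1BB on T cells, lay at 57.2, 50.7 and 62.4 CPM in the controls and at 45.8, 60.9 and 56.4 CPM in the knockouts. The groups overlapped, and the log2 fold change was -0.06 (SE 0.12, adjusted p = 0.976) and a fold between 0.809 and 1.14. Tnfsf9 lies on chromosome 17 from base 57105385 to 57107757, and 192 of its exon bases are shared with the lncRNA gene Gm11110 on the opposite strand, so that reads there could belong to either.

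Il6, which encodes the acute phase cytokine IL-6, lay at 302, 432 and 574 CPM in the controls and at 299, 498 and 464 CPM in the knockouts. The first library of each group was the lowest and the groups overlapped almost fully. The means were 436 ± 136 and 420.2 ± 106 CPM (SD, n = 3 each), and the log2 fold change was -0.05 (SE 0.19, adjusted p = 0.991). The 95% interval of the fold ran from 0.732 to 1.27, the widest of the 4 abundant genes. Il6 spans bases 30013161 to 30019968 of chromosome 5 on the plus strand, with 5 exons.

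Lif encodes leukaemia inhibitory factor, which acts through Lifr and gp130. It lay at 8.85, 6.75 and 6.35 CPM in the controls and at 11.1, 11.5 and 9.56 CPM in the knockouts, and every knockout value was above every control value. The means were 7.32 ± 1.35 and 10.7 ± 1.0 CPM (SD, n = 3 each). The fold was 1.46 with a 95% interval of 1.13 to 1.87 (log2 fold change 0.54, SE 0.17, unadjusted p = 0.0059, adjusted p = 0.495), so that it did not pass over all genes. These values rest on 73 to 161 counts per library. Lif lies on chromosome 11 from base 4257568 to 4272514, on the plus strand, with 5 merged exons.

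Summed levels of neutrophil and precursor markers were 407 to 513 CPM in the controls and 711 to 889 CPM in the knockouts, with 11 of 13 markers measured. Of these 11, 5 rose over all genes tested: Ngp, S100a8, Lcn2, S100a9 and Ltf. Monocyte markers, 6 of 6 measured and 0 passing, summed to 33.3 to 36.2 and 44.7 to 58.7 CPM, and stromal markers, 4 of 8 measured, to 6.24 to 9.22 and 10.6 to 15.9 CPM. The stromal markers Col1a2 and Sparc exceeded 1 CPM in 3 knockout and 0 control libraries. As the table looks filtered at that level, this can raise the difference in the stromal sum. The part of these cell types in the values of Lif was not tested.

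Il10, the anti-inflammatory cytokine, was close to the floor of the table. Its values were 4.86, 2.76 and 3.13 CPM in the controls and 3.65, 3.33 and 3.68 CPM in the knockouts, from 36 to 68 counts each. All knockout values lay within the control range (log2 fold change -0.01, SE 0.26, adjusted p = 0.999). At this depth the 95% interval of the fold ran from 0.680 to 1.45. Il10 lies on chromosome 1 from base 131019845 to 131024970.

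Among the chains of the IL-12 family, Il12b was abundant and its partners were not. Il12b, the chain shared by IL-12 and IL-23, lay at 901, 1194 and 1484 CPM in the controls and at 934, 1296 and 1344 CPM in the knockouts. The groups had nearly the same mean, 1193 ± 292 and 1192 ± 224 CPM (SD, n = 3 each), and the first library was the lowest in both. The log2 fold change was -0.0013 (SE 0.15, adjusted p = 0.9999), with a fold between 0.799 and 1.25.

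Il12a, the chain particular to IL-12, lay at 17.5, 17.7 and 25.5 CPM in the controls and at 20.2, 20.7 and 25.1 CPM in the knockouts. The third library was the highest in both groups, and the difference did not pass (log2 fold change 0.13, SE 0.15, adjusted p = 0.939). Il23a, the chain particular to IL-23, lay at 4.21, 1.29 and 3.22 CPM in the controls and at 4.26, 3.64 and 4.29 CPM in the knockouts. Control library 2 stood apart with 20 counts, and its exact 95% Poisson interval of 0.785 to 1.99 CPM, which covers counting error only, lay below that of control library 1 (3.21 to 5.43 CPM). The log2 fold change of Il23a was 0.50 (SE 0.32, adjusted p = 0.869) and 0.13 without control library 2.

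Il27 encodes the chain of IL-27 that pairs with EBI3, and it was the most uniform of the 10 within groups. It lay at 376, 373 and 391 CPM in the controls and at 303, 312 and 327 CPM in the knockouts. Every knockout value was below every control value, with means of 380.0 ± 9.94 and 314 ± 11.8 CPM (SD, n = 3 each). The fold was 0.826 with a 95% interval of 0.733 to 0.931 (log2 fold change -0.28, SE 0.082, unadjusted p = 0.0037). Over all genes the difference did not pass (adjusted p = 0.414, and 0.165 with DESeq2), and Il27 was 93rd of 10551 genes by p. Leaving out each library in turn gave log2 fold changes from -0.30 to -0.25. Among the macrophage markers the median log2 fold change was -0.12. Of 7 genes 0 passed and 2 were at an unadjusted p under 0.05, beside 6.48% of all genes. C1qa was at 236 ± 5.27 and 194 ± 2.93 CPM (log2 fold change -0.28, adjusted p = 0.406), and Fcgr1 and Adgre1 had -0.33 and -0.18. For these 3 markers every knockout value was likewise below every control value. Over all genes 11.2% had groups that did not overlap, in either direction. For Csf1r, Cd68, Itgam and Mertk the groups overlapped, with log2 fold changes of -0.12, -0.0094, 0.013 and 0.066. The part of the macrophage marker levels in the value of Il27 was not tested.

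Ebi3, the partner of the IL-27 chain, lay at 9.78, 6.81 and 8.0 CPM in the controls and at 7.63, 8.60 and 7.85 CPM in the knockouts. All knockout values fell inside the control range (log2 fold change -0.03, SE 0.18, adjusted p = 0.992). Of its exon bases 270 are shared with the antisense gene Gm16712, and the sources used here do not state the use of strand in counting. In mm10 Il12a lies on chromosome 3 (68690644 to 68698550), Il12b on chromosome 11 (44400063 to 44414677), Il23a on chromosome 10 (128296140 to 128298084), Il27 on chromosome 7 (126589295 to 126594910) and Ebi3 on chromosome 17 (55952623 to 55957022). Tnfsf9 and Ebi3 aside, the exons of the 10 genes overlapped no exon of another annotated gene.

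**Figure D2:**
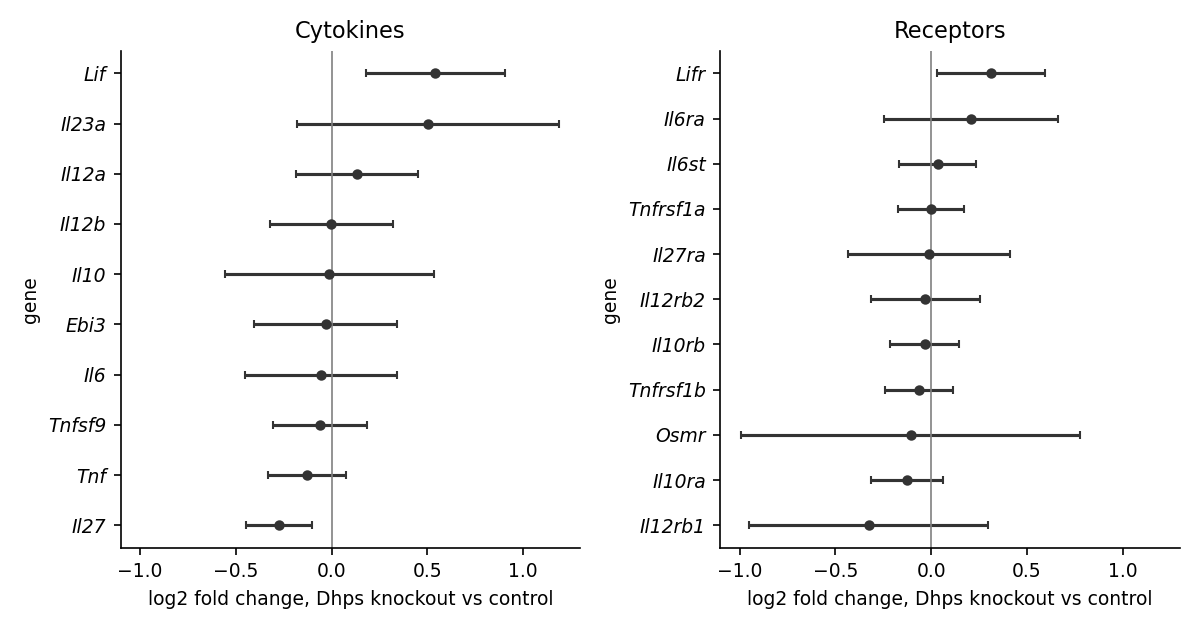
Log2 fold change of Dhps knockout against control for the 10 cytokine genes (left) and 11 receptor genes (right), with 95% intervals from edgeR. The intervals of Lif, Il27 and Lifr do not include 0, and none of the 21 genes passed over all genes tested.

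Compared between genes per length, as CPM per kilobase of deposited exon length, the cytokines fell into an abundant and a scarce set. In control libraries Tnf led with 1316 ± 163, followed by Il27 with 539 ± 14.1, Il12b with 476 ± 116 and Il6 with 401 ± 125 CPM per kilobase (SD, n = 3). The gaps between Il27, Il12b and Il6 were smaller than the SD of Il12b. In knockout libraries Il12b, at 476 ± 89.5, stood before Il27, at 445 ± 16.8, and the gap was again within the SD of Il12b. Tnfsf9 followed with 46.1 ± 4.74 in control, then Il12a with 14.7 ± 3.32 and Ebi3 with 7.0 ± 1.28 CPM per kilobase. The lowest were Il10 at 2.74 ± 0.855, Il23a at 2.14 ± 1.10 and Lif at 1.69 ± 0.310 CPM per kilobase in control libraries, whose gaps were within the SD of Il10 and Il23a. In knockout libraries Il23a, at 2.99 ± 0.270, stood before Il10, at 2.72 ± 0.146, and Lif was again last, at 2.47 ± 0.232.

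The ratio of the chains of a dimer does not depend on library size. Per base, Il12b had 28.2, 37.0 and 31.9 times the reads of Il12a in the controls and 25.3, 34.3 and 29.3 times in the knockouts. The ratio was highest in library 2 and lowest in library 1 of each group, and the groups overlapped. On the log2 scale the mean ratio was 5.01 ± 0.196 in the controls and 4.88 ± 0.220 in the knockouts, a difference of -0.13 (two-sided exact permutation test, p = 0.50). For Il12b to Il23a the ratio was 116, 504 and 250.2 in the controls and 119, 193 and 170.0 in the knockouts, a log2 difference of -0.64 (exact permutation p = 0.50). Control library 2, with 20 counts of Il23a, held the highest of these ratios, and the difference was -0.11 without that library.

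Per base, Ebi3 had 0.0157, 0.0110 and 0.0123 times the reads of Il27 in the controls and 0.0152, 0.0166 and 0.0145 times in the knockouts. The log2 ratio was -6.28 ± 0.261 and -6.02 ± 0.102, a difference of 0.26 (exact permutation p = 0.30). All 3 ratios had an adjusted p = 0.50, and 3 libraries against 3 cannot give a p below 0.10.

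**Figure D3:**
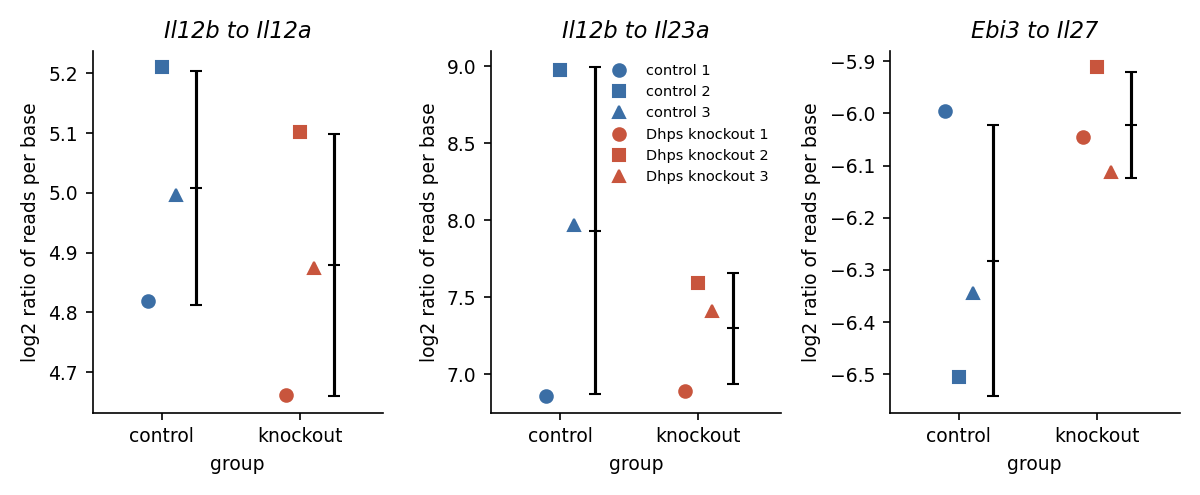
Log2 ratio of reads per base of the 2 chains of IL-12, IL-23 and IL-27 in each library, with group mean and SD (black, n = 3). The groups overlap in each panel, and control library 2 stands high for Il12b to Il23a at 8.98.

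Il6 and Il12b were low in the library numbered 1 of both groups. On the log2 scale Il6 and Il12b deviated from their group mean by -0.48 and -0.38 in control library 1 and by -0.46 and -0.33 in knockout library 1. Tnf had deviations of -0.16 and -0.03 and Il12a of -0.18 and -0.11 in these libraries. These 4 of the 10 genes were lowest in library 1 of both groups, as were 1679 of all 10551 genes (15.9%). The pattern was noticed after the values were seen. The labels name no batch and do not say whether a shared number marks a shared preparation.

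The SD within groups of Il6 was 0.43 on the log2 scale, and among the 500 genes nearest to it in level 0.2% had a larger one. For Il12b the SD was 0.33 and the share 1.0%, and for Il23a 0.60 and 2.2%. Il27 stood at the other end with an SD of 0.047, which 95.6% of the 500 genes nearest in level exceeded, and Tnf, at 0.13, was exceeded by 35.0%. The SE of the fold change was 0.19 for Il6 and 0.082 for Il27. It comes from edgeR's estimate of spread, which borrows from other genes, and does not follow from these SDs alone.

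**Figure D4:**
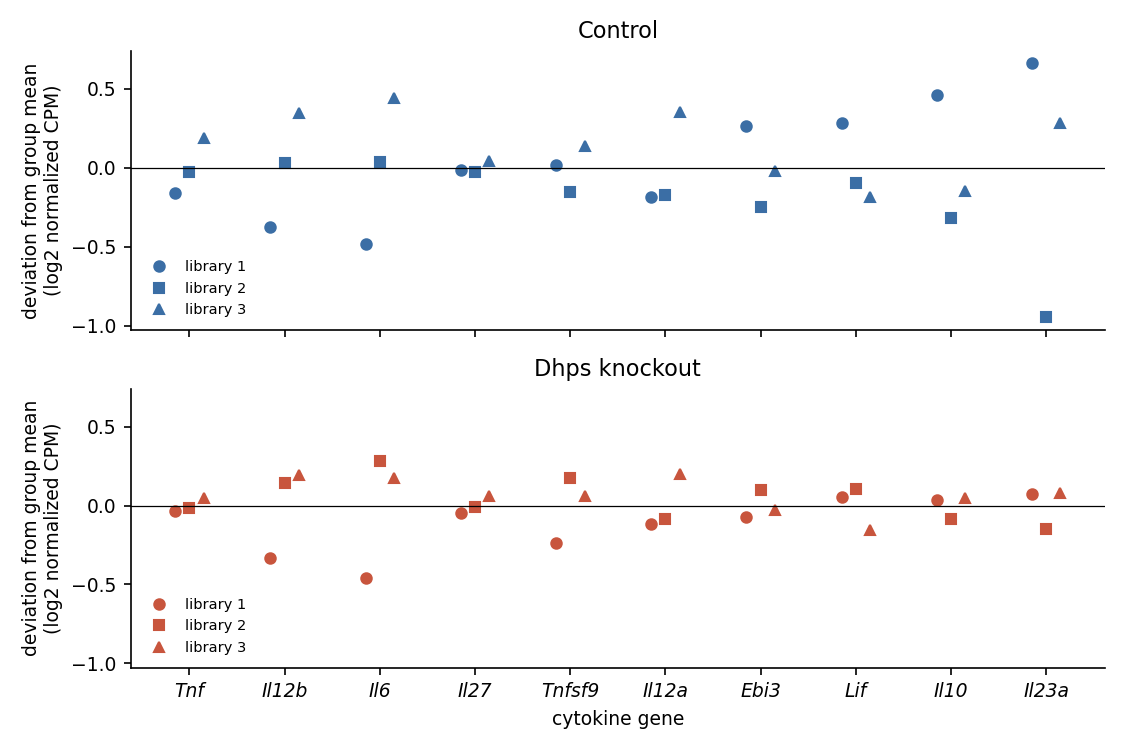
Deviation of each library from its group mean in log2 normalized CPM for the 10 genes, for control (top) and Dhps knockout (bottom). Library 1 is low for Il6 and Il12b in both groups, and Il27 shows the smallest spread.

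Il6 and Il12b were the pair of cytokine genes with the most similar profile over the 6 libraries, with a root mean square difference of 0.10 in mean-centred log2 CPM. Tnf and Il27 came next with 0.11. The measure is not scaled to spread, and the SD over the 6 libraries was 0.13 for Tnf, beside 0.39 for Il6 and 0.29 for Il12b. A small difference between genes of small spread need not mean a like pattern. In the whole table, among genes with at least 0.8 times the spread of the member, those nearest to Il12b were Zfp748 (0.057), St3gal5 (0.057) and Zc2hc1a (0.059). St3gal5, a sialyltransferase gene, lay at 81.0, 111 and 133 CPM in the controls and 83.8, 109 and 129 CPM in the knockouts. Nearest to Il6 were Cdkn1b (0.088), Zfp811 (0.10) and 9930104L06Rik (0.11), and nearest to Tnf were Exoc3 (0.016), Slc31a2 (0.019) and Pkn2 (0.036). The likeness describes these 6 libraries, and 3103, 1792 and 8320 genes were compared with Il12b, Il6 and Tnf.

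Receptors of the cytokines, listed together with the oncostatin M receptor gene Osmr, showed no change that passed. Of 13 listed genes 11 were measured, 0 passed in either direction, and 1 had an unadjusted p under 0.05, beside 6.48% of all genes. The median log2 fold change was -0.03, with 3 above 0 and 8 below, beside 5143 above and 5408 below over all genes. The TNF receptor gene Tnfrsf1a lay at 234, 242 and 241 CPM in the controls and at 238, 242 and 237 CPM in the knockouts (log2 fold change -0.0016, SE 0.081, adjusted p = 0.9999). Its fold had a 95% interval of 0.888 to 1.12. For Tnfrsf1b, the other TNF receptor and the more abundant per length, the log2 fold change was -0.06 (adjusted p = 0.961), with 1098 ± 61.6 and 1052 ± 36.3 CPM.

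Lifr, the specific receptor of LIF, lay at 14.9, 14.6 and 11.8 CPM in the controls and at 18.2, 17.05 and 16.2 CPM in the knockouts. As for Lif, every knockout value was above every control value, and the difference did not pass (log2 fold change 0.31, SE 0.13, unadjusted p = 0.033, adjusted p = 0.724). Il6st, which encodes gp130, was at 109.8 ± 9.26 and 112 ± 7.43 CPM (log2 fold change 0.03), while Il6ra, the specific IL-6 receptor, was scarce at 3.91 and 4.52 CPM (0.21, adjusted p = 0.933). Osmr, the receptor of oncostatin M, lay below 2 CPM in every library (-0.11). The IL-10 receptor chains Il10ra, at 794 and 728 CPM, and Il10rb, at 215 and 209.8 CPM, had log2 fold changes of -0.13 and -0.03.

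Il12rb1, the receptor chain shared by IL-12 and IL-23, lay at 5.21, 7.07 and 10.3 CPM in the controls and at 3.16, 6.04 and 8.58 CPM in the knockouts. Like Il6 and Il12b it was lowest in library 1 of both groups, and the groups overlapped (log2 fold change -0.33, SE 0.29, adjusted p = 0.911). Its value ran from -0.71 without knockout library 3 to -0.017 without knockout library 1. Il12rb2 was at 12.3 and 12.1 CPM (-0.03) and Il27ra at 5.09 and 5.05 CPM (-0.01). Il23r and Tnfrsf9 were not analysed here.

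Of 24 other ligands of the same families 10 were measured, and 0 passed in either direction (median log2 fold change 0.20, and 0.02 without control library 2). The largest values were those of Tnfsf12, which encodes TWEAK, at 0.66 (2.00 and 3.20 CPM, adjusted p = 0.728) and Tnfsf13, which encodes APRIL, at -0.62 (adjusted p = 0.869). Clcf1 and Csf3 had log2 fold changes of 0.25 and 0.47. With 1 library left out Clcf1 ranged from 0.15 to 0.40, and Csf3 from 0.039 without knockout library 1 to 0.71 without control library 3. Among 16 genes of JAK-STAT signalling and its feedback, 0 passed, and the median was 0.02. Socs3, which is induced by and limits IL-6 signalling, was at 1639 ± 74.1 CPM in the controls and 1512 ± 44.4 CPM in the knockouts (-0.12, adjusted p = 0.886). For Cish the log2 fold change was 0.24 (adjusted p = 0.710), for Bcl3 0.18 and for Socs1 -0.12.

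The 16 genes of TNF receptor signalling included 0 that passed, with a median of -0.08 and 12 below 0. Over all genes 5408 of 10551 lay below 0. Fadd, the adaptor of death receptors, had -0.65 (3.19 and 2.06 CPM, adjusted p = 0.749), while Birc2 and Traf2 had -0.19 and -0.15, and Tnip1, which restrains NF-kB, 0.16. Of 16 transcription factors of the cytokine promoters 0 passed and 3 had an unadjusted p under 0.05, beside 6.48% of all genes. Bhlhe40, a repressor of Il10, was at 35.5 ± 4.33 CPM in the controls and 44.5 ± 3.42 CPM in the knockouts (log2 fold change 0.33, adjusted p = 0.553). Rel, the NF-kB subunit tied to Il12b and Il23a transcription, was at 109.7 ± 6.29 and 131 ± 6.54 CPM (0.26, adjusted p = 0.568). Batf3 and Cebpd had -0.28 and -0.31 (adjusted p = 0.673 and 0.793).

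Regulators of mRNA decay and stability act on the cytokine transcripts through their untranslated ends. Of 12 listed genes 11 were measured, 0 passed, 8 had a log2 fold change above 0, and 3 had an unadjusted p under 0.05. Over all genes 5143 of 10551 lay above 0 and 6.48% had such a p. Zc3h12a, the nuclease Regnase-1 that cleaves Il6 mRNA, lay at 173, 138 and 149.6 CPM in the controls and at 217, 179 and 165 CPM in the knockouts (0.28, SE 0.11, adjusted p = 0.672). Zfp36, tristetraprolin, which destabilizes Tnf mRNA, lay at 109.9, 101 and 118 CPM in the controls and at 129.8, 122 and 125 CPM in the knockouts (0.20, SE 0.090, adjusted p = 0.749). The groups overlapped for Zc3h12a and did not for Zfp36. Zfp36l2 and Rc3h1 had 0.26 and 0.10, and the median was 0.10.

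Of 4 genes of TNF shedding, the protease gene Adam17 was at 263 ± 21.2 and 240.1 ± 22.0 CPM (log2 fold change -0.13, adjusted p = 0.894). Its partners Rhbdf1 and Rhbdf2 had -0.26 and -0.04. Timp3, an inhibitor of this protease, lay at 2.93, 1.93 and 1.83 CPM in the controls and at 5.36, 6.59 and 5.09 CPM in the knockouts. The log2 fold change of 1.34 (SE 0.25) was just outside the threshold (adjusted p = 0.052), and Timp3 passed with DESeq2 (adjusted p = 0.0059), with the replicate block (0.014) and without control library 1 (0.021). It did not pass without any of the other 5 libraries, with adjusted p from 0.075 without knockout library 1 to 0.405 without control library 2. Stromal markers, whose summed levels are given above and are higher in the knockout libraries, include 2 genes that rose, Col1a2 and Sparc. Both exceeded 1 CPM in 3 knockout and 0 control libraries, so only the knockout libraries carried them past the apparent filter of the table. That selection can raise their fold changes and the stromal sum. The other measured stromal markers, Postn and Pdgfrb, had log2 fold changes of 0.41 and 0.02, with groups that overlapped. The part of stromal cells in the value of Timp3 was not tested.

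**Figure D5:**
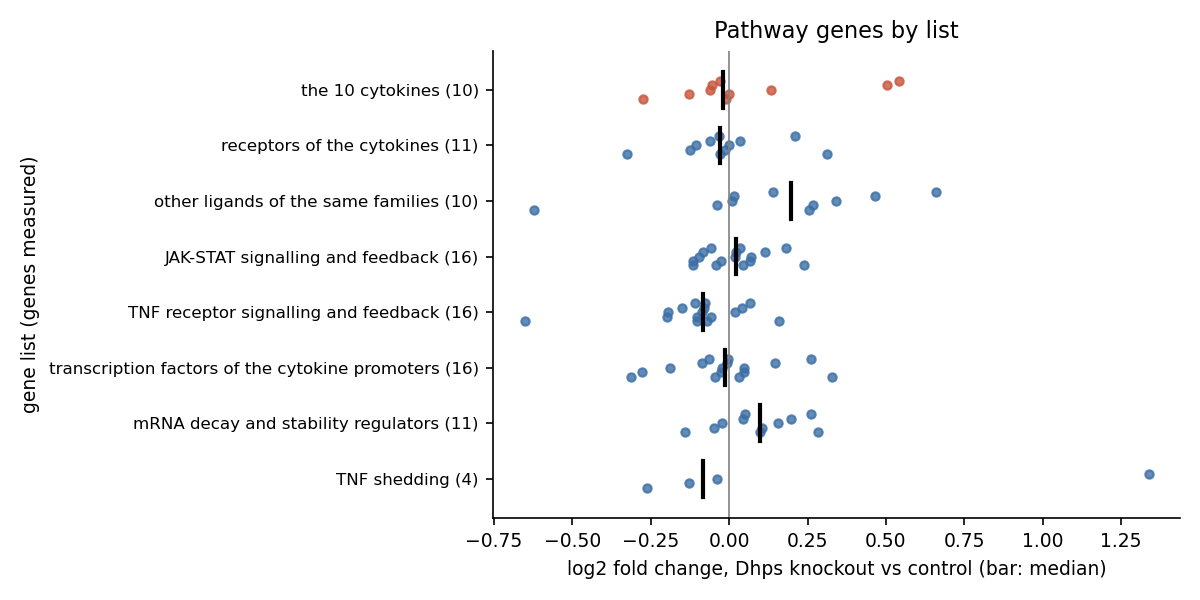
Log2 fold change of Dhps knockout against control for each measured gene of 8 lists (points) with the list median (bar). No gene passed over all genes tested, and Timp3 lies farthest to the right at 1.34.

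Other cell types could add cytokine transcripts. T and NK cell markers had 0 of 6 genes in the table. Of 6 dendritic cell markers 2 were measured, Zbtb46 and Clec9a, which summed to 4.76 to 7.28 CPM in the controls and 6.51 to 9.83 CPM in the knockouts. Of 5 B and plasma cell markers 2 were measured, at 0.957 to 2.70 and 2.39 to 4.18 CPM. Markers of mast cells and basophils, 4 of 6 measured, had sums of 2.0 to 4.44 CPM in the controls and 5.36 to 7.79 CPM in the knockouts. None of these (0 of 4) passed, and the basophil proteases Mcpt8 and Prss34 had log2 fold changes of 2.00 and 1.70 (adjusted p = 0.110 and 0.132). Both exceeded 1 CPM in 3 knockout and 0 control libraries, so only the knockout libraries carried them past the apparent filter of the table. That selection can raise their fold changes and the sum. Kit and Cpa3, the other measured markers of this list, had 0.11 and -0.11. Of 7 megakaryocyte and platelet markers 6 were measured and 0 passed, with a median log2 fold change of 0.70. Gp9 and Tubb1 among them likewise exceeded 1 CPM in 3 knockout and 0 control libraries, which can raise this median. The sums of the 6 markers, 1498 to 1797 CPM in the controls and 1269 to 1396 CPM in the knockouts, were mostly Pf4 (-0.29). Ppbp had 0.77. The part of any of these cell types in the cytokine values was not tested.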

How the data were processed

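Bone marrow-derived macrophage RNA was sequenced on an Ion Proton instrument in 3 control and 3 Dhps knockout libraries, per the labels' protocols. The authors deposited raw read counts per gene, with exon coordinates and summed exon lengths in bases, another kind of value, used here to compare genes per length. Tools listed by the submitters' processing notes are featureCounts, edgeR, STAR 2.4.2a and Subread 1.5.0, with mm10 as the build and no roles given. Neither the annotation nor the strand setting is given in the sources used here. In each of the 10551 genes the third highest library exceeded 1 CPM, so the table looks filtered. All 10 cytokine genes exceeded 1 CPM in all 6 libraries.

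Counts were scaled by TMM, and edgeR 4.0.16 (R 4.3.3) gave quasi-likelihood tests, two-sided, genotype only, adjusted by Benjamini-Hochberg over all genes. No gene (0) was removed by filterByExpr at its minimum count of 10. SE was the log2 fold change divided by the root of F. Log2 CPM used a prior count of 2. The test was tested on simulated data.

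The 10 genes and the lists were chosen with earlier results of these data known. Named are the 10 genes, Dhps, all measured receptors, up to 4 genes with the smallest p of each other list, and the 3 genes most alike to Tnf, Il6 and Il12b. Single marker genes given with values, and Col1a2 and Sparc, were chosen after their values were seen. Tried beside this were the size factors of DESeq2, unscaled totals, no filter and a stricter filter, DESeq2 1.42.0, a replicate block, each library left out, an adjusted p under 0.1, and 1 count added to each chain of a ratio. 0 columns of per-sample values were unused. GENCODE M21 gave exon overlaps.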

Additional observations from a re-analysis of the deposited data

How the results depend on the processing

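The number of genes called over the table was 11, with 22 by DESeq2, 35 with the replicate block and 4 to 19 with 1 library left out, the extremes being without control library 2 and without control library 1; it was 7 without control library 3. None of the 10 cytokine genes was called under any of these alternatives or at an adjusted p under 0.1. Same-numbered libraries deviated from their group means with correlations across genes of 0.14, 0.02 and 0.15, and libraries of unlike number with -0.18 to 0.055. As number 2 gave a value near 0, the numbers were not taken as pairing the samples, and not every library correlated best with its own number. Under the replicate block Dhps passed (log2 fold change -0.61, adjusted p = 0.033). With that block the SE was 0.093 for Il6 and 0.088 for Il12b, beside 0.19 and 0.15 without it.

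Tnf, Il12a, Il23a, Il27 and Lif kept the sign of their log2 fold change under each alternative, with 1 library left out from -0.20 to -0.03, 0.03 to 0.33, 0.13 to 0.90, -0.30 to -0.25 and 0.46 to 0.70. The others had values near 0 and changed sign. With 1 library left out the range was -0.26 to 0.19 for Il6, -0.17 to 0.28 for Il10, -0.17 to 0.19 for Il12b, -0.15 to 0.12 for Ebi3 and -0.15 to 0.053 for Tnfsf9. Il12b was 0.00039 with the size factors of DESeq2, 0.00023 with DESeq2, 0.019 without normalization factors and 0.0096 with the replicate block. Il10 was 0.016 without normalization factors and 0.0097 with the block. Il6 and Il12b were both above 0 without control library 3 (0.19 and 0.19) and without knockout library 1 (0.15 and 0.15).

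Of the pathway genes, Timp3 also passed with the size factors of DESeq2, without normalization factors and with the stricter filter (adjusted p = 0.050, 0.035 and 0.048). Receptor genes with values near 0 changed sign. Tnfrsf1a was 0.00037 with the size factors of DESeq2, 0.00036 with DESeq2 and 0.022 without normalization factors, and Il27ra was 0.013 without them. With 1 library left out the range was -0.016 to 0.010 for Tnfrsf1a, -0.082 to 0.072 for Il27ra, -0.061 to 0.013 for Il10rb, -0.018 to 0.11 for Il6st, -0.34 to 0.27 for Osmr and -0.064 to 0.0078 for Il12rb2. The same range was -0.083 to 0.032 for Rhbdf2. The list summaries were recomputed under these alternatives after seeing the data, and besides Timp3 no gene of the pathway lists was called. The chain ratios kept their sign with 1 count added and with each library left out, from -0.24 to -0.02 for Il12b to Il12a, -1.17 to -0.11 for Il12b to Il23a and 0.15 to 0.40 for Ebi3 to Il27.

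Il10, Il23a, Ebi3 and Lif rest on 20 to 161 counts per library.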
